A study of Mus musculus with 8 samples.

Results

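The genes described here form the core of the mammalian microRNA machinery. They are the Argonaute genes Ago1, Ago2, Ago3 and Ago4, the processing genes Drosha, Dgcr8 and Dicer1, and the scaffold genes Tnrc6a, Tnrc6b and Tnrc6c. The 10 genes were chosen by name, through their Entrez identifiers, out of 18631 genes in each deposited table, with earlier results of these data known. Which of those results led to the choice is not stated. All values below therefore only describe these libraries within a fit over the whole table. All 10 were listed in every library, and 9 of the 10 had a mean of at least 1 FPKM (fragments per kilobase of transcript, scaled to library size) and were tested. Ago4 was below that filter. None of the 9 tested genes passed only through the libraries where it was high, since the mean of the lowest of them, Ago3, was 1.18 FPKM without the THZ1-treated null libraries.

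Poly(A)-selected RNA was sequenced from 2 mouse kidney epithelial lines, in 4 groups of 2 libraries each. The groups were Pkd1-/- cells (line null(PN)) given THZ1 at 50 nM for 6 h, null cells given DMSO, Pkd1+/- cells (line pkd1(PH), called heterozygous or het here) given the same THZ1 dose and time, and heterozygous cells given DMSO. All 4 groups grew in the same medium, which held IFNγ, and THZ1 is a covalent inhibitor of CDK7, a kinase that acts on RNA polymerase II. Each genotype is 1 line, so the loss of Pkd1 and any other difference between the lines cannot be told apart, and whether the 2 libraries of a group are separate cultures is not labelled, so that p-values here measure a spread that may be technical.

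Pkd1, the gene for polycystin 1, read 1.22 and 1.21 FPKM in null THZ1 libraries, 1.69 and 1.32 in null DMSO, 3.71 and 4.20 in het THZ1, and 4.58 and 5.30 in het DMSO. Depth, estimated from the step size of low FPKM values, was 17500000 to 18600000 fragments per library. Of 7 kidney epithelial markers, the keratin genes Krt8 and Krt18, the transcription factor genes Pax8 and Pax2 and the cadherin gene Cdh16 were abundant, while Cdh1 and Epcam, both defining epithelial genes, stayed under 1 FPKM in every library. The summed FPKM of the 7 epithelial markers was 704 to 716 in null THZ1, 735 to 742 in null DMSO, 949 to 979 in het THZ1 and 930 to 1010 in het DMSO libraries. Krt8, Krt18, Pax8 and Pax2 were lower in null than in het cells under each treatment. Cdh16 went the other way, averaging 307 FPKM in null THZ1, 264 in null DMSO, 184 in het THZ1 and 182 in het DMSO. The 8 fibroblast markers summed to 39.9 to 42.9 FPKM in null THZ1, 33.6 to 33.7 in null DMSO, 15.3 in both het THZ1 and 15.5 to 16.6 in het DMSO libraries, with 6 of the 8 under 1 FPKM throughout. The 6 immune markers summed to 3.97 to 4.86 FPKM in null THZ1, 1.78 to 2.20 in null DMSO, 2.92 to 3.36 in het THZ1 and 2.93 to 3.16 in het DMSO libraries, almost all of it Cd68, with Adgre1 and Cd3e at 0 in every library. The 5 endothelial markers summed to at most 0.22 FPKM. The part of these marker differences in the results below was not tested.

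As background, a primary microRNA transcript is cut in the nucleus by the Microprocessor, in which Drosha is the nuclease and Dgcr8 its RNA-binding partner. Exported hairpins are trimmed by Dicer1, and a strand of the product is loaded into an Argonaute protein, whose microRNA seed pairs with target mRNAs. The Tnrc6 (GW182) proteins bind Argonaute and recruit deadenylases and the decapping machinery, and among mammalian Argonautes Ago2 is best known for cutting fully paired targets. Inactivation of Dicer1 in the kidney epithelium of mice produces cysts, and several microRNAs are studied in polycystic kidney disease.

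MicroRNA precursors lie inside the transcripts of 2 of these genes, and they are shown because the Dgcr8 mRNA is itself a known substrate of the Microprocessor. Both Dgcr8 precursors sit in the same exon on the minus strand of chromosome 16 (GRCm38.p6), miR-1306 at chr16:18284239-18284317 within the coding sequence and miR-3618 at chr16:18284550-18284637 upstream of it. The miR-5113 precursor lies at chr15:80940039-80940120, on the plus strand, in the 3′ UTR of Tnrc6b. The mature sequences, from RefSeq, are printed 5′ to 3′ with the seed (bases 2 to 8) in capitals. The 5 seeds are all different.
mmu-miR-1306-3p: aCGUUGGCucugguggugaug
mmu-miR-1306-5p: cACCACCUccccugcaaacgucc
mmu-miR-3618-3p: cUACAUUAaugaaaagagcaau
mmu-miR-3618-5p: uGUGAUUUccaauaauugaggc
mmu-miR-5113: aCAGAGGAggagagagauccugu

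Promoters are shown for Ago3 and Tnrc6b, which were among the genes with the largest THZ1 differences in null cells, and for Drosha, whose start lies beside that of a gene that fell. RefSeq promoter entries (GRCm38.p6) were found for 9 of the 10 genes, the exception being Ago2. Capitals mark matches on either strand to 8 motifs searched in the 250 bases upstream of the start. Of 32851 mouse promoters of that length, 32.7% held a GC box (GGGCGG), 33.8% a CCAAT box (CCAAT), 12.4% a TATA box (TATAAA), 6.02% an E-box (CACGTG), 6.91% an ETS site (CCGGAAG), 1.55% a CRE (TGACGTCA), 4.46% an AP-1 site (TGAGTCA) and 1.45% an NRF1 core (GCGCATGCG). The Ago3 promoter, chr4:126429543-126429792 on the minus strand, held 4 GC boxes and 1 ETS site. It lies inside the RefSeq span of Ago3, chr4:126326994-126431670, which reaches further upstream. Tnrc6b has 2 starts in the table. The window of the first, printed below, is chr15:80711063-80711312 on the plus strand and held 4 CCAAT boxes and 1 GC box, while that of the second, chr15:80798360-80798609, held 0 of either and 1 E-box. The 165 bases between the GENCODE M21 starts of Drosha and 6030458C11Rik, chr15:12824650-12824814 read along the Drosha strand, held 3 CCAAT boxes and 1 ETS site. The RefSeq spans of both genes reach into that window. None of the 3 printed windows held a TATA box, CRE or AP-1 match. A match is a description of letters only.
Ago3: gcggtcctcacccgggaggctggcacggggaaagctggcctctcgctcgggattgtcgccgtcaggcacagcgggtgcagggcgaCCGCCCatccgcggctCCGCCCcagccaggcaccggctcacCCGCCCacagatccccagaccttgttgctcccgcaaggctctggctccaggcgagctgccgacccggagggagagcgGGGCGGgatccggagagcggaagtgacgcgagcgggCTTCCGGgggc
Tnrc6b: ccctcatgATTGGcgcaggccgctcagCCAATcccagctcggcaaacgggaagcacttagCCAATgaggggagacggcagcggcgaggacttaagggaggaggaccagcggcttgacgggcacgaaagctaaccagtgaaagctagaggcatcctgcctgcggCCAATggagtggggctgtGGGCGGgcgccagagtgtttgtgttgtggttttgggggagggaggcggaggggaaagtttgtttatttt
Drosha: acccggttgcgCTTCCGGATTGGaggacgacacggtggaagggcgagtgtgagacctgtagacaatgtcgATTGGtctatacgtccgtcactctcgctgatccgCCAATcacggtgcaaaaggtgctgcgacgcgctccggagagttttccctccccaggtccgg

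Under THZ1, FPKM of Ago1, Ago2, Ago3 and Tnrc6b in null cells was higher than under DMSO, while the processing genes moved little. FPKM is relative to the library, so amounts of transcript per cell are not known. Ago2 and Ago3 read more than 2-fold higher, Tnrc6b and Ago1 were higher by less, and Dicer1 was lower, a call that was lost with median-of-ratios scaling. In heterozygous cells given the same dose none of these genes passed the test. Under DMSO, Dicer1, Drosha, Dgcr8 and Tnrc6a already read lower in null than in heterozygous cells. In bulk RNA, a change in every cell and a change in some cells cannot be told apart.

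**Figure D1:**
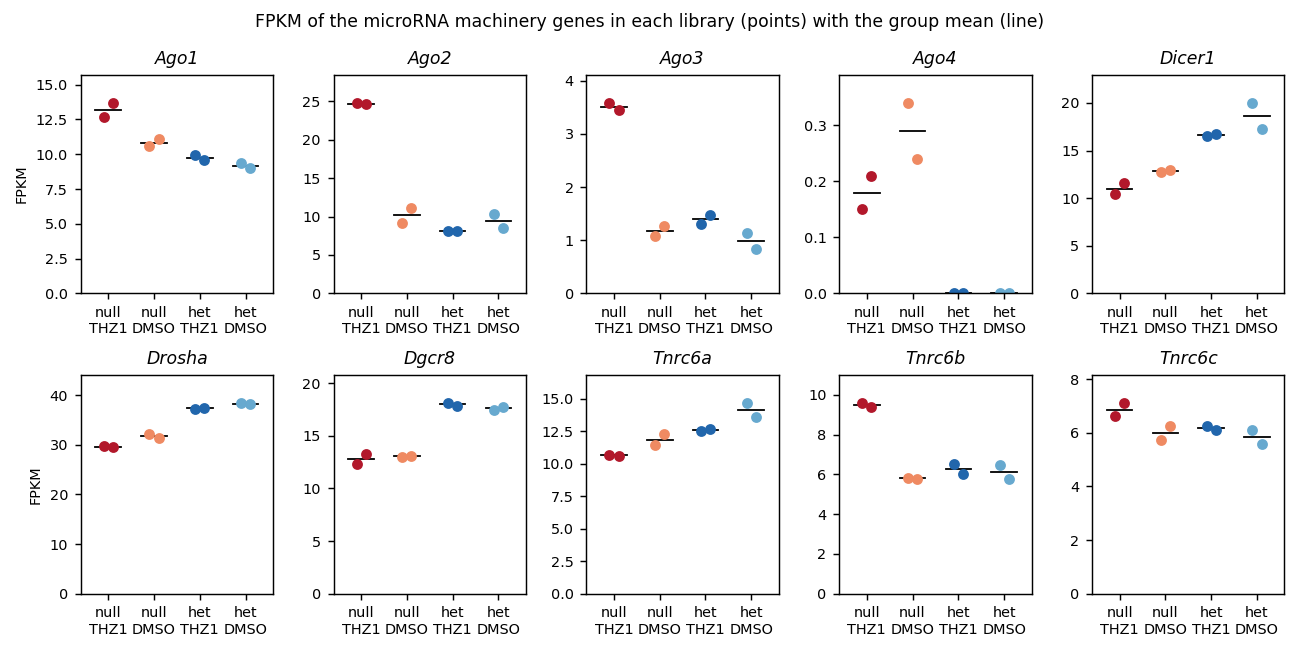
FPKM (vertical axes, each from 0) of the 10 genes in the 8 libraries. Points are libraries and lines group means, with null THZ1, null DMSO, het THZ1 and het DMSO from left to right. Ago2, Ago3 and Tnrc6b stand apart in the null THZ1 libraries, while Dicer1, Drosha and Dgcr8 separate by line.

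Ago2 encodes the Argonaute known for target cleavage (chr15:73101625-73184947, minus strand). It read 24.79 and 24.63 FPKM in null THZ1 libraries, 9.17 and 11.18 in null DMSO, 8.16 and 8.07 in het THZ1, and 10.36 and 8.58 in het DMSO. Both null THZ1 libraries lay far above the other 6, whose values overlapped between the lines under DMSO. In null cells the THZ1 difference was 1.21 ± 0.091 (SE) on the log2(FPKM + 1) scale, limma adjusted p = 9.94e-08. Ago2 ranked 27 from the top of 10731 tested genes for that difference. In heterozygous cells the difference was -0.19 ± 0.091, limma adjusted p = 0.141, although both THZ1 libraries lay below both DMSO libraries. The null response exceeded the het response by 1.40 ± 0.129, limma adjusted p = 2.52e-06.

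Ago3 (chr4:126326994-126431670, minus strand) encodes another member of the family. It read 3.58 and 3.45 FPKM in null THZ1 libraries, 1.08 and 1.26 in null DMSO, 1.31 and 1.48 in het THZ1, and 1.14 and 0.84 in het DMSO. The null THZ1 libraries were again above all others, and THZ1 libraries lay above DMSO libraries in both lines. The ratio of mean FPKM in null cells was 3.00, which the log2(FPKM + 1) scale gives as 1.06 ± 0.101 (limma adjusted p = 8.01e-07), since that scale understates changes of low genes. The het difference was 0.27 ± 0.101, limma adjusted p = 0.072. The responses of the lines differed by 0.79 ± 0.143, limma adjusted p = 0.000454.

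Ago1, on the minus strand beside Ago3 (chr4:126435012-126468707), encodes a further member of the family. It read 12.65 and 13.68 FPKM in null THZ1 libraries, 10.58 and 11.08 in null DMSO, 9.93 and 9.58 in het THZ1, and 9.35 and 9.03 in het DMSO. The 4 groups did not overlap and kept that order. It rose under THZ1 in null cells by 0.26 ± 0.064 (limma adjusted p = 0.00253), and null DMSO exceeded het DMSO by 0.22 ± 0.064 (limma adjusted p = 0.00921). The second call was lost without the second null DMSO library (limma adjusted p = 0.0701). In het cells the THZ1 difference was 0.08 ± 0.064 (limma adjusted p = 0.401). The responses of the lines differed by 0.18 ± 0.091 for Ago1, limma adjusted p = 0.101.

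Ago4 (chr4:126489487-126533586, minus strand), the least abundant of the Argonaute genes here, read 0.15 and 0.21 FPKM in null THZ1 libraries and 0.34 and 0.24 in null DMSO libraries, and was listed at 0 in all 4 heterozygous libraries. It was below the filter and so not tested in the main fit. With no filter on low values Ago4 entered the fit only through the null libraries. Its call by limma there, as higher in null than in het cells under DMSO, therefore gives no support for a difference. The fit with no filter called 6 of 10 genes in that comparison, 2 of them higher. Over all genes it called 8038, out of 18631 less the 1319 listed at 0 in every library. The Ago4 values lie near the floor. The PIWI-clade genes Piwil1, Piwil2 and Piwil4, germline relatives of the Argonautes, reached at most 0.03 FPKM.

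The make-up of the Argonaute pool differed accordingly, in shares of FPKM that do not depend on the scaling of a library. Ago2 was 60.2% and 58.7% of summed Argonaute FPKM in null THZ1 libraries, 43.3% and 47.1% in null DMSO, 42.1% and 42.2% in het THZ1, and 49.7% and 46.5% in het DMSO. The summed Argonaute level was 41.17 and 41.97 FPKM in null THZ1 libraries, 21.17 and 23.76 in null DMSO, 19.40 and 19.13 in het THZ1, and 20.85 and 18.45 in het DMSO. Within libraries, Ago2 stood at 1.96 and 1.80 times Ago1 in null THZ1, 0.867 and 1.01 times in null DMSO, 0.822 and 0.842 times in het THZ1, and 1.11 and 0.95 times in het DMSO. The null THZ1 libraries were apart from the other 6 on all 3 measures. An exact permutation test of 2 libraries against 2 cannot go below p = 0.333, so no p is given for these shares.

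**Figure D2:**
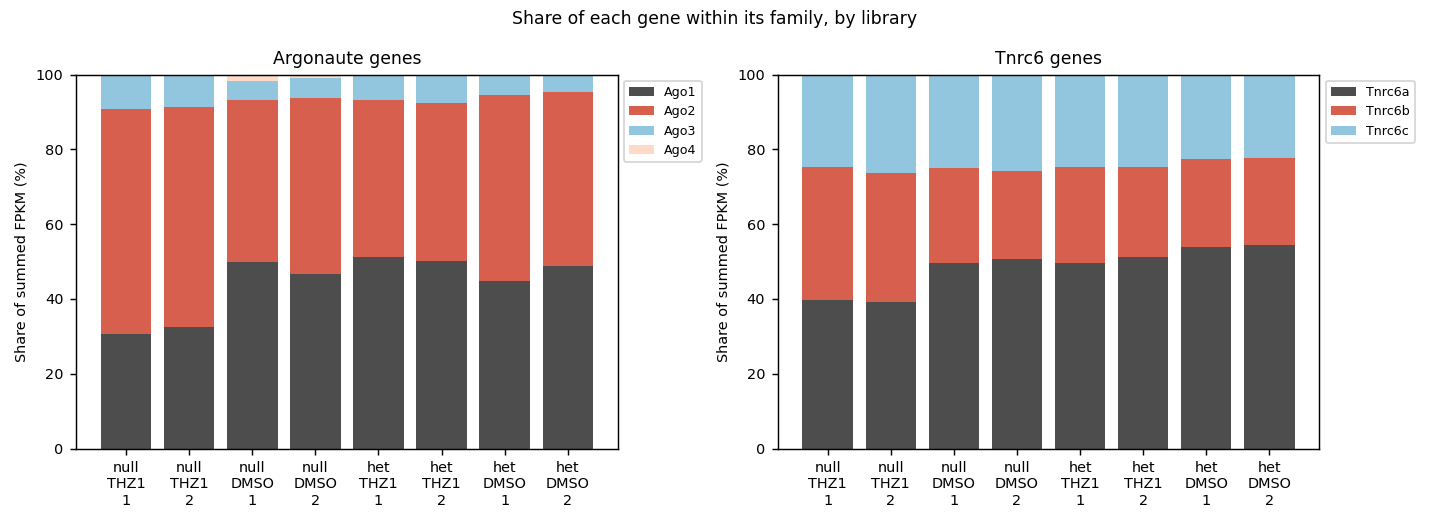
Share of summed FPKM (percent, 0 to 100) taken by each Argonaute gene, left, and each Tnrc6 gene, right, in the 8 libraries, with null THZ1 at the left of each panel and het DMSO at the right. The Ago2 share is 60.2% and 58.7% and the Tnrc6b share 35.6% and 34.6% in the null THZ1 libraries, above the other 6 libraries.

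Tnrc6b (chr15:80711313-80941086, plus strand) was the scaffold gene that rose. It read 9.57 and 9.38 FPKM in null THZ1 libraries, 5.83 and 5.77 in null DMSO, 6.51 and 6.02 in het THZ1, and 6.46 and 5.78 in het DMSO. The 6 libraries other than null THZ1 covered a narrow range. The THZ1 difference was 0.62 ± 0.074 in null cells (limma adjusted p = 5.66e-06) and 0.03 ± 0.074 in het cells (limma adjusted p = 0.802), and the responses differed by 0.59 ± 0.104 (limma adjusted p = 0.000361). It ranked 249 of 10731 in null cells.

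Tnrc6a (chr7:123031101-123195296, plus strand), the most abundant scaffold gene, read 10.70 and 10.60 FPKM in null THZ1 libraries, 11.41 and 12.31 in null DMSO, 12.54 and 12.64 in het THZ1, and 14.64 and 13.61 in het DMSO. Null libraries lay below het libraries under each treatment, and THZ1 libraries below DMSO libraries in each line. The line difference under DMSO was -0.23 ± 0.062 (limma adjusted p = 0.00475), and it missed the threshold without the first null DMSO library (limma adjusted p = 0.0553). The THZ1 difference was -0.14 ± 0.062 in null cells (limma adjusted p = 0.0547) and turned positive with median-of-ratios scaling (0.086) and upper-quartile scaling (0.053). In het cells the Tnrc6a difference was -0.15 ± 0.062 (limma adjusted p = 0.0951), and the responses of the lines differed by 0.01 ± 0.088 (limma adjusted p = 0.916).

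Tnrc6c (chr11:117653703-117763439, plus strand) read 6.64 and 7.10 FPKM in null THZ1 libraries, 5.75 and 6.26 in null DMSO, 6.27 and 6.09 in het THZ1, and 6.12 and 5.60 in het DMSO. It had the narrowest range of the scaffolds and passed the test in no comparison as deposited. Its THZ1 difference in null cells was 0.17 ± 0.075 (limma adjusted p = 0.058), and it became a call with median-of-ratios scaling (0.386, limma adjusted p = 0.000331) and upper-quartile scaling (0.355, limma adjusted p = 0.000705). In het cells it was 0.07 ± 0.075 (limma adjusted p = 0.554), and the responses of the lines differed by 0.10 ± 0.106 (limma adjusted p = 0.427). Within libraries, Tnrc6b stood at 0.894 and 0.885 times Tnrc6a in null THZ1, 0.511 and 0.469 times in null DMSO, 0.519 and 0.476 times in het THZ1, and 0.441 and 0.425 times in het DMSO.

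Dicer1 (chr12:104687740-104751968, minus strand), the cytoplasmic nuclease, read 10.47 and 11.54 FPKM in null THZ1 libraries, 12.77 and 12.95 in null DMSO, 16.53 and 16.75 in het THZ1, and 19.98 and 17.22 in het DMSO. The 4 groups did not overlap. Under DMSO the null line was lower than the het line by -0.50 ± 0.072 in log2 (limma adjusted p = 4.26e-05), a ratio of mean FPKM of 0.691. The THZ1 difference in null cells was -0.21 ± 0.072 (limma adjusted p = 0.0182), against an all-gene median of -0.17, and it was 0.02 with median-of-ratios scaling. That THZ1 call was also lost without the first null THZ1 library (limma adjusted p = 0.142), the first null DMSO library (0.0544) or the second (0.0744). In het cells the THZ1 difference of Dicer1 was -0.15 ± 0.072 (limma adjusted p = 0.153), and the responses of the lines differed by -0.06 ± 0.102 (limma adjusted p = 0.63).

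Drosha (chr15:12824804-12935291, plus strand), the nuclear nuclease, had the highest FPKM of the 10 genes in every library. It read 29.68 and 29.51 in null THZ1 libraries, 32.14 and 31.38 in null DMSO, 37.29 and 37.50 in het THZ1, and 38.34 and 38.29 in het DMSO. The groups did not overlap, and the lines were further apart than the treatments. The line difference under DMSO was -0.26 ± 0.043 (limma adjusted p = 0.000128). The THZ1 difference in null cells was -0.10 ± 0.043 (limma adjusted p = 0.054) and became a positive call with median-of-ratios scaling (0.142, limma adjusted p = 0.0112) and upper-quartile scaling (0.107, limma adjusted p = 0.0382). In het cells it was -0.03 ± 0.043 (limma adjusted p = 0.602), and the responses of the lines differed by -0.06 ± 0.061 (limma adjusted p = 0.381).

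Dgcr8 (chr16:18253948-18289251, minus strand), the RNA-binding partner, read 12.35 and 13.28 FPKM in null THZ1 libraries, 13.02 and 13.05 in null DMSO, 18.07 and 17.86 in het THZ1, and 17.46 and 17.77 in het DMSO. It separated by line with no overlap, and the treatments overlapped within the null line. The line difference was -0.41 ± 0.056 under DMSO (limma adjusted p = 2.77e-05) and -0.46 ± 0.056 under THZ1 (limma adjusted p = 5.3e-06). The THZ1 difference in null cells was -0.02 ± 0.056 (limma adjusted p = 0.715), and it became a positive call with median-of-ratios scaling (0.207, limma adjusted p = 0.00321) and upper-quartile scaling (0.174, limma adjusted p = 0.00968). In het cells it was 0.03 ± 0.056 (limma adjusted p = 0.763), and the responses of the lines differed by -0.05 ± 0.079 (limma adjusted p = 0.604). Drosha stood at 2.40 and 2.22 times Dgcr8 in null THZ1, 2.47 and 2.40 times in null DMSO, 2.06 and 2.10 times in het THZ1, and 2.20 and 2.15 times in het DMSO. The ratio of summed Argonautes to Dicer1 was 3.93 and 3.64 in null THZ1, 1.66 and 1.83 in null DMSO, 1.17 and 1.14 in het THZ1, and 1.04 and 1.07 in het DMSO.

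In FPKM, which is per length, the order of levels in null THZ1 cells was Drosha, Ago2, Ago1, Dgcr8, Dicer1, Tnrc6a, Tnrc6b, Tnrc6c, Ago3 and Ago4. The library values of Ago1 and Dgcr8 overlapped there, as did those of Dicer1 and Tnrc6a. In het DMSO cells the order was Drosha, Dicer1, Dgcr8, Tnrc6a, Ago2, Ago1, Tnrc6b, Tnrc6c, Ago3 and Ago4. The values of Dicer1 and Dgcr8 overlapped, and so did those of Ago2 and Ago1 and those of Tnrc6b and Tnrc6c. Ago2 was thus the second highest in null THZ1 cells and the fifth in het DMSO cells.

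Counted over the 9 tested genes, 4 were higher (Ago1, Ago2, Ago3 and Tnrc6b) and 1 lower (Dicer1) under THZ1 than under DMSO in null cells at a limma adjusted p below 0.05. Over all tested genes 24.6% were higher and 51.1% lower in that comparison. The median log2 difference was 0.17 over the 9 genes and -0.17 over all genes, and the all-gene median was 0.044 with median-of-ratios scaling, 0.012 with upper-quartile scaling and -0.252 with scaling to library totals. Relative to the all-gene median, Ago2 lay 1.38, Ago3 1.23, Tnrc6b 0.80 and Ago1 0.43 higher on the log2 scale, and those 4 genes stayed called as higher in every alternative that tested them. With either median-of-ratios or upper-quartile scaling 7 of the 9 were higher and 0 lower by limma, with Drosha, Dgcr8 and Tnrc6c added and Dicer1 lost. Of all genes, 41.8% were higher and 35.8% lower with the median-of-ratios scaling. The upper-quartile scaling gave 39.3% higher and 37.6% lower.

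In het cells, limma called 0 of the 9 genes under THZ1, while 12.2% of all genes were called higher and 10.3% lower. At an unadjusted limma p below 0.05 there were 2 of the 9 in het cells and 8 in null cells. Between the lines there were 5 under DMSO and 8 under THZ1. The share of all genes at that unadjusted threshold was not counted. It is at least the share called at the adjusted threshold, 24.6% higher and 51.1% lower for THZ1 in null cells. Between the lines that was 29.0% and 41.0% under DMSO, and 25.1% and 58.1% under THZ1. The unadjusted counts are therefore not read as a result about the 9 genes. Without the second het DMSO library, Ago2 and Dicer1 passed as lower under THZ1 in het cells. For the difference between the responses of the lines, 3 of the 9 genes were higher in null cells (Ago2, Ago3 and Tnrc6b) and 0 lower by limma, with 3 at an unadjusted p below 0.05. Over all genes 15.1% were higher and 45.1% lower for that difference. With either median-of-ratios or upper-quartile scaling 7 of the 9 were higher, beside 33% and 31.5% of all genes.

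**Figure D3:**
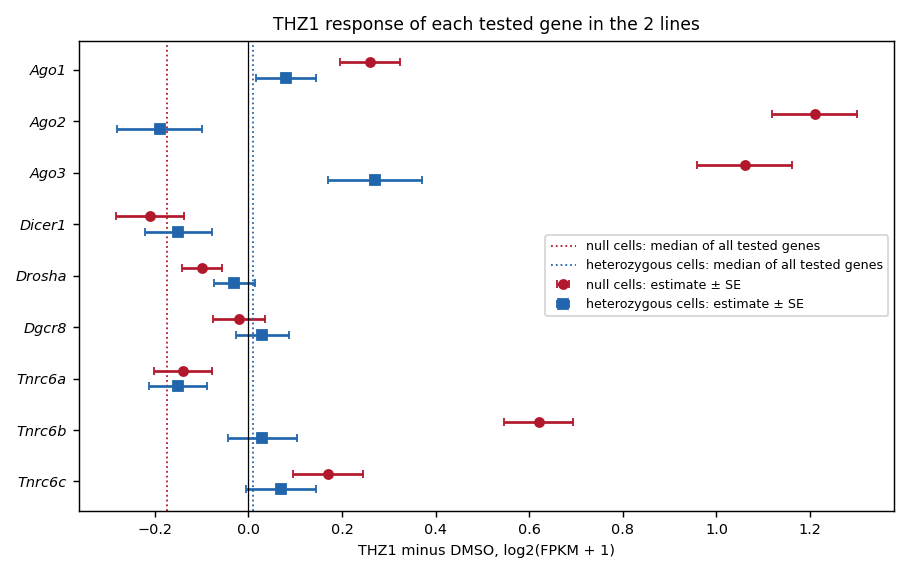
THZ1 minus DMSO in log2(FPKM + 1) for the 9 tested genes, as estimate ± SE, in null cells (circles, upper of each pair) and heterozygous cells (squares). Dotted lines are the medians of all tested genes, -0.17 in null and 0.01 in het cells. Ago2, Ago3 and Tnrc6b lie far to the right in null cells, while the null estimates of Dicer1, Drosha, Dgcr8 and Tnrc6a lie nearer the all-gene median and are above 0 with median-of-ratios scaling.

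Between the lines under DMSO, 1 of the 9 genes was higher (Ago1) and 4 lower (Dicer1, Drosha, Dgcr8 and Tnrc6a) in null cells, with 29.0% of all genes higher and 41.0% lower. The median log2 difference was -0.06 over the 9 genes and -0.07 over all genes, and the scalings gave the same counts for the 9. The differences that missed the threshold were 0.09 ± 0.091 for Ago2, 0.13 ± 0.101 for Ago3, -0.06 ± 0.074 for Tnrc6b and 0.03 ± 0.075 for Tnrc6c. Under THZ1, 4 were higher and 4 lower in null than in het cells, with 25.1% of all genes higher and 58.1% lower. Ago2 was then higher by 1.496 ± 0.091 (limma adjusted p = 5.96e-09), Ago3 by 0.92 ± 0.101, Tnrc6b by 0.53 ± 0.074 and Ago1 by 0.40 ± 0.064. The lower genes were Dicer1 at -0.56 ± 0.072, Drosha at -0.33 ± 0.043, Dgcr8 at -0.46 ± 0.056 and Tnrc6a at -0.22 ± 0.062, of which Tnrc6a turned positive (0.062 and 0.044) and Drosha lost its call with median-of-ratios and upper-quartile scaling. With those scalings 5 of the 9 were higher, Tnrc6c added, and 2 lower. Of all genes, 40.3% were then higher and 41.2% lower with median-of-ratios scaling, and 39.3% and 42.3% with upper-quartile scaling. Tnrc6c differed by 0.13 ± 0.075 as deposited. These comparisons share libraries with those of THZ1 against DMSO.

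For 3 of the genes a gene on the opposite strand overlaps or adjoins the locus, and how strand was handled in counting is not given in the sources used here, so reads in an overlap cannot be told apart. In GENCODE M21, Ago2 overlaps the end of Chrac1, a chromatin accessibility complex subunit, by 1711 bp. The RefSeq spans of these genes do not overlap, since that of Chrac1 ends at chr15:73094075 and that of Ago2 begins at chr15:73101625. Which annotation was used for counting is not given. Chrac1 read 12.04 and 12.95 FPKM in null THZ1 libraries, 18.90 and 20.96 in null DMSO, 25.79 and 25.90 in het THZ1, and 20.49 and 25.19 in het DMSO. Its THZ1 difference in null cells, where Ago2 rose, was -0.63 ± 0.08 (limma adjusted p = 1.42e-05).

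Dgcr8 overlaps Trmt2a, a tRNA methyltransferase gene, by 825 bp. Trmt2a read 8.16 and 8.66 FPKM in null THZ1 libraries, 21.95 and 22.29 in null DMSO, 29.92 and 30.83 in het THZ1, and 33.57 and 32.97 in het DMSO. Its THZ1 difference in null cells was -1.30 ± 0.05 (limma adjusted p = 6.22e-10). The gene 6030458C11Rik, which faces Drosha across the 165 bases printed above, read 4.0 and 4.3 FPKM in null THZ1 libraries, 14.38 and 14.46 in null DMSO, 15.06 and 14.22 in het THZ1, and 17.84 and 17.36 in het DMSO. Its THZ1 difference in null cells was -1.58 ± 0.06 (limma adjusted p = 5.68e-10). The 3 neighbours were called lower under THZ1 in null cells, as were 51.1% of all tested genes. Their values stayed negative in every alternative. Neighbours of the other genes were not examined.

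**Figure D4:**
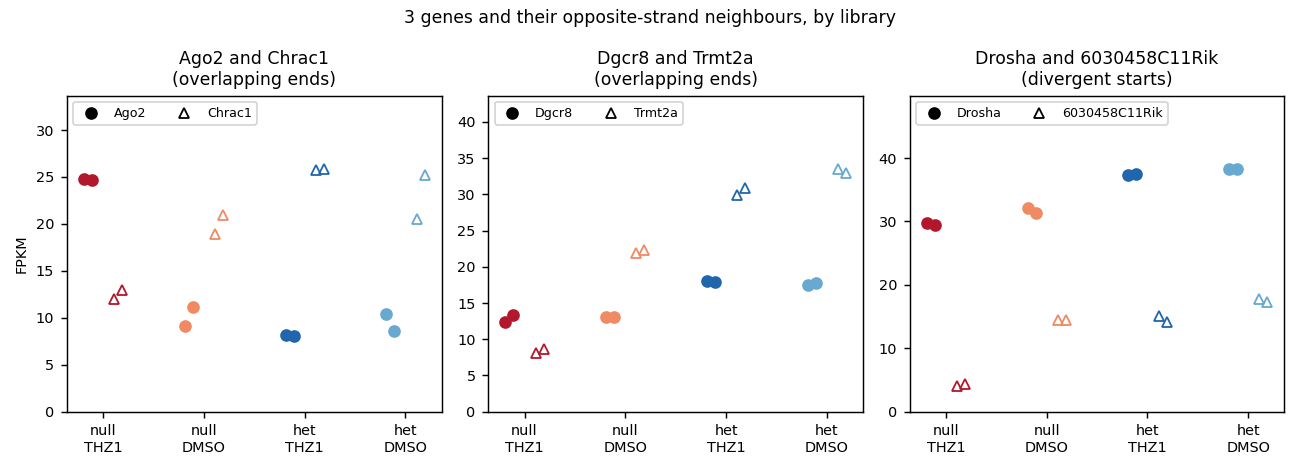
FPKM (vertical axes from 0) of Ago2, Dgcr8 and Drosha (filled circles) and of the opposite-strand neighbours Chrac1, Trmt2a and 6030458C11Rik (open triangles) in each library, from null THZ1 at the left to het DMSO at the right. All 3 neighbours are lowest in the null THZ1 libraries, where Ago2 is highest.

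Beyond the core genes, the wider pathway was read through lists of factors. Of 14 nuclear processing and export genes, all tested, 3 were higher and 8 lower under THZ1 in null cells, a split that became 7 higher and 5 lower with median-of-ratios scaling. As deposited that was 21.4% higher and 57.1% lower, beside 24.6% and 51.1% of all genes. With median-of-ratios scaling 41.8% of all genes were higher and 35.8% lower. The median was -0.15 as deposited and 0.10 with that scaling. Srsf3, a splicing factor that also aids primary microRNA recognition, averaged 23.1 ± 1.27 FPKM in null THZ1, 108 ± 3.32 in null DMSO, 118 ± 4.15 in het THZ1 and 148 ± 5.10 in het DMSO (SD, n = 2 each). It fell in both lines, with a THZ1 difference of -2.17 ± 0.05 in null cells (limma adjusted p = 1.68e-11) and -0.32 ± 0.05 in het cells (limma adjusted p = 0.00139). The helicase gene Ddx17 (-0.71 ± 0.05) and the scaffold attachment factor gene Safb2 (-0.77 ± 0.07) also fell in null cells, while Erh (0.32 ± 0.05), Ncbp1 (0.25 ± 0.05) and Ncbp2 (0.18 ± 0.05), which encode a Microprocessor-associated protein and the cap-binding pair, rose. Under DMSO, 2 of the 14 were higher and 10 lower in null cells (14.3% and 71.4%, beside 29.0% and 41.0% of all genes), with a median of -0.34. Xpo5, which exports precursor hairpins, was among the higher at 0.28 ± 0.06, beside Ddx17 at 0.38 ± 0.05. Hnrnpa1 (-0.83 ± 0.04), Hnrnpa2b1 (-0.49 ± 0.04) and Ran (-0.43 ± 0.04), the GTPase of nuclear export, were lower.

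Among 22 Dicer partners, loading chaperones and Argonaute-associated factors, 6 were higher and 12 lower under THZ1 in null cells, or 11 and 6 with median-of-ratios scaling. The deposited values gave 27.3% higher and 54.5% lower, near the 24.6% and 51.1% of all genes. Over all genes the scaling gave 41.8% higher and 35.8% lower. The chaperone genes Ptges3 (p23, -1.01 ± 0.05) and Hspa8 (-0.79 ± 0.05) and the helicase gene Mov10 (-0.87 ± 0.06) fell. Dhx9 (0.50 ± 0.08), Limd1 (0.37 ± 0.05) and Fxr1 (0.21 ± 0.04) rose. Under DMSO, 4 of the 22 were higher and 14 lower in null cells (18.2% and 63.6%, beside 29.0% and 41.0% of all genes), with a median of -0.36. Tsnax, which encodes translin-associated factor X, a subunit of the nuclease C3PO, averaged 26.0 ± 0.453 FPKM in null THZ1, 24.6 ± 0.410 in null DMSO, 7.08 ± 0.247 in het THZ1 and 6.20 ± 0.615 in het DMSO (SD, n = 2 each), a line difference under DMSO of 1.84 ± 0.07 (limma adjusted p = 1.53e-10). Its partner gene Tsn was lower in null cells by -0.57 ± 0.05 (limma adjusted p = 1.53e-07). Prkra, the gene of the Dicer partner PACT, was higher by 0.77 ± 0.06, and Adar, an RNA editing gene, by 0.49 ± 0.06. The co-chaperone genes Stip1 (-0.68 ± 0.04) and Fkbp4 (-0.58 ± 0.04) were lower.

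Of 27 tested silencing effectors that act downstream of the Tnrc6 proteins, 5 were higher and 17 lower under THZ1 in null cells, or 9 and 9 with median-of-ratios scaling. As deposited this was 18.5% higher and 63.0% lower, beside 24.6% and 51.1% of all genes. Over all genes the scaling gave 41.8% higher and 35.8% lower. The 2 subunits of the PAN deadenylase moved in opposite directions. Pan2, the catalytic subunit, averaged 3.48 ± 0.269 FPKM in null THZ1, 10.5 ± 0.0707 in null DMSO, 8.32 ± 0.0424 in het THZ1 and 11.6 ± 0.467 in het DMSO (SD, n = 2 each). It fell in both lines, with a THZ1 difference of -1.36 ± 0.07 in null cells (limma adjusted p = 3.71e-09) and -0.44 ± 0.07 in het cells (limma adjusted p = 0.00164). Pan3, the Tnrc6-binding subunit, rose by 0.56 ± 0.07 in null cells (limma adjusted p = 5.99e-06). The CCR4-NOT genes Cnot9 (-0.60 ± 0.05) and Cnot3 (-0.56 ± 0.05) fell, while Pabpc1 (0.32 ± 0.04) and Eif4e2 (0.25 ± 0.04) rose. Between the lines under DMSO, 1 of the 27 was higher (Pabpc1, 0.13 ± 0.04) and 16 lower in null cells, which is 3.7% and 59.3%, beside 29.0% and 41.0% of all genes. Those lower with the smallest adjusted p were Cnot9 at -0.79 ± 0.05, Cnot6 at -0.69 ± 0.05 and Eif4enif1, which encodes a partner of the cap-binding protein, at -0.58 ± 0.05. With median-of-ratios scaling 2 of the 27 were higher and 12 lower in that comparison, beside 33.6% and 35.4% of all genes.

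Of 9 tested genes for microRNA tailing and turnover, 2 were higher and 4 lower under THZ1 in null cells, or 4 and 3 with median-of-ratios scaling. The deposited split was 22.2% and 44.4%, near the 24.6% and 51.1% of all genes. Over all genes the scaling gave 41.8% higher and 35.8% lower. Zswim8, the ubiquitin ligase adaptor of target-directed microRNA decay, averaged 36.2 ± 0.255 FPKM in null THZ1, 30.3 ± 1.83 in null DMSO, 20.2 ± 0.467 in het THZ1 and 16.9 ± 0.622 in het DMSO (SD, n = 2 each). It rose under THZ1 in null cells by 0.25 ± 0.05 (limma adjusted p = 0.00099) and in het cells by 0.24 ± 0.05 (limma adjusted p = 0.00931), and was higher in null than het cells under DMSO by 0.80 ± 0.05 (limma adjusted p = 3.86e-08). Parn (-0.59 ± 0.05), a deadenylase gene, Trim32 (-0.47 ± 0.05), a ubiquitin ligase gene, and Tut7 (-0.62 ± 0.08), a uridylyltransferase gene, fell under THZ1 in null cells. Tent2, a poly(A) polymerase gene, rose by 0.16 ± 0.07 (limma adjusted p = 0.0468), a call kept in 8 of 17 alternatives. Under DMSO 2 of these 9 were higher and 5 lower in null cells (22.2% and 55.6%, beside 29.0% and 41.0% of all genes). Median-of-ratios scaling gave 4 and 5, beside 33.6% higher and 35.4% lower over all genes. Besides Zswim8, Tut7 was higher by 0.19 ± 0.08 (limma adjusted p = 0.0489, kept in 7 of 17 alternatives), while Eri1 (-0.67 ± 0.06), Parn (-0.50 ± 0.05) and Dis3l2 (-0.68 ± 0.09), genes of exonucleases, were lower. The let-7 regulators Lin28a and Lin28b and the ubiquitin ligase gene Trim71 were near 0, at no more than 0.05 FPKM.

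**Figure D5:**
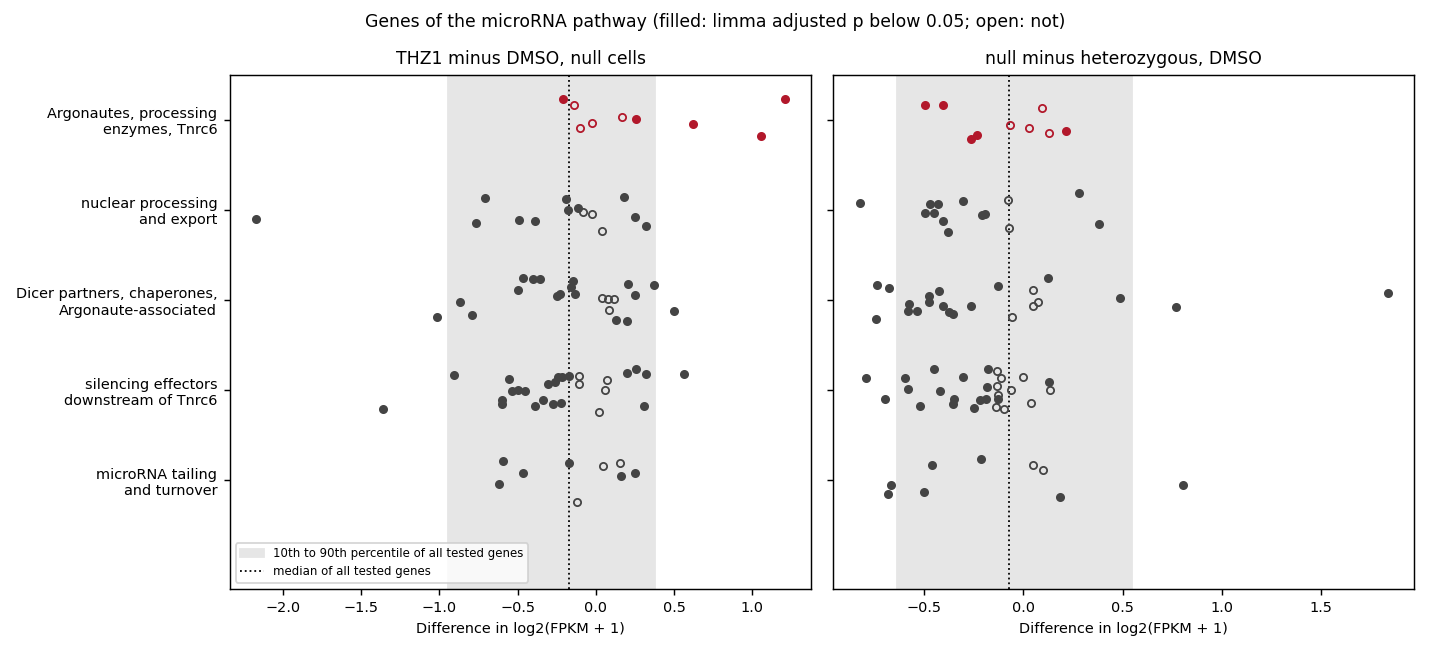
Difference in log2(FPKM + 1) of each tested pathway gene, by list, for THZ1 minus DMSO in null cells (left) and null minus heterozygous cells under DMSO (right). Filled points have a limma adjusted p below 0.05, the grey band spans the 10th to 90th percentile of all tested genes, and the dotted line is their median (-0.17 left, -0.07 right). Ago2, Ago3, Tnrc6b, Pan3 and Dhx9 lie above the band at left, Srsf3 is the lowest point at left and Tsnax the highest at right.

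The genes nearest to Ago2 in the pattern of its 4 group means, by Euclidean distance after centring in log2 among 7589 tested genes of moderate or high level, were Ier5l (distance 0.248), Mafk (0.25) and Cxcl1 (0.274), against a median distance of 1.39. Mafk, a small Maf transcription factor gene, averaged 29.7 FPKM in null THZ1, 13.4 in null DMSO, 12.8 in het THZ1 and 12.3 in het DMSO. Cxcl1, a chemokine gene, averaged 112 FPKM in null THZ1, 59.5 in null DMSO, 38.1 in het THZ1 and 45.3 in het DMSO. Nearest to Drosha were Ercc2 (0.016), Msantd3 (0.02) and Bri3bp (0.028), against a median distance of 0.49. Nearest to Dicer1 were Tfdp1 (0.039), Stau2 (0.04) and Pds5b (0.044), against a median of 0.59. With 4 group means these distances are descriptions.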

How the data were processed

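The authors deposited FPKM values per gene with Entrez identifiers, 1 table per library. Reads were aligned to mm10, and Bowtie2 and DESeq2 were used, per the submitters' processing notes. The counting program, annotation and strand setting were not given in the sources used here.

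From the deposited FPKM, log2(FPKM + 1) was fitted with limma 3.58.1 in R 4.3.3 (limma-trend) over 4 groups of 2 libraries (residual degrees of freedom: 4). Genes with a mean of at least 1 FPKM were kept (10731 genes). Tests were two-sided with Benjamini-Hochberg adjustment over all tested genes, and a call is an adjusted p below 0.05. FPKM divides by library size, so a shift in many genes moves the others, and 3 rescalings were tried. Depth, 17500000 to 18600000 fragments, is an estimate, so no counting interval is given.

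The 10 genes and all lists were chosen with earlier results of these data known. All 10 are named in every comparison, and from each list the 3 called genes with the smallest adjusted p in each direction, in the comparisons described for it. Coordinates and sequences are from RefSeq (GRCm38.p6), and overlaps of genes from GENCODE M21. Alternatives were other scalings, pseudocount 0.1, other filters, no mean trend, a replicate block and leaving out each library. A further gene first taken as a kidney epithelial marker was left out of that list and is not reported here.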

Additional observations from a re-analysis of the deposited data

Results flagged for a closer look

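For 3 genes the THZ1 response itself differed between the lines, by a test of the difference in limma over all genes. Ago2 responded more in null than in heterozygous cells by 1.403 on the log2(FPKM + 1) scale (limma adjusted p = 2.52e-06). Ago3 did so by 0.788 (limma adjusted p = 0.000454) and Tnrc6b by 0.593 (limma adjusted p = 0.000361). The ranges of these values over all alternatives were 1.273 to 1.637 for Ago2, 0.679 to 1.045 for Ago3 and 0.524 to 0.816 for Tnrc6b. Each group has 2 libraries, so no library could be singled out within a group.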

How the results depend on the processing

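Of 751 recomputed values of the 9 tested genes, 691 kept direction and side of the threshold, and 16 of 21 called values kept their call in every alternative. In null cells the THZ1 difference became positive with median-of-ratios scaling for Dicer1 (0.02), Drosha (0.142), Dgcr8 (0.207) and Tnrc6a (0.086), and with upper-quartile scaling for Drosha (0.107), Dgcr8 (0.174) and Tnrc6a (0.053). Between the lines under THZ1, Tnrc6a became 0.062 and 0.044 with those scalings. For the difference of responses they gave Dicer1 0.166 and 0.146, Drosha 0.174 and 0.153, and Dgcr8 0.179 and 0.159, and 7 genes were called with each, against 3. Library totals gave -0.018 for Dgcr8 and -0.011 for Tnrc6b under THZ1 in het cells, and -0.025 for Tnrc6a in the difference of responses. By their construction the scalings shift all genes of a library alike.

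Leaving out each library in turn moved small values across 0. The ranges were -0.134 to 0.004 for Tnrc6b, -0.037 to 0.223 for Ago2 and -0.024 to 0.085 for Tnrc6c between the lines under DMSO, -0.039 to 0.099 for Tnrc6b under THZ1 in het cells, -0.072 to 0.025 for Dgcr8 under THZ1 in null cells, and -0.039 to 0.062 for Tnrc6a and -0.162 to 0.041 for Dicer1 in the difference of responses. The cause was not tested. In het cells 0 to 2 of the 9 genes were called when a library was left out, and 1 without the mean trend. Over all genes, 1309 were called there with no filter on low values, against 2406. With no filter, the Dicer1 call for THZ1 in null cells was lost (limma adjusted p = 0.0608).

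The replicate numbers gave no sign of pairing, with correlations of same-numbered deviations of -0.094 to 0.139 over 6 pairs of groups. With the replicate block, 5 genes were called for THZ1 in null cells and 0 in het cells, as without it. Ago4 was listed at 0 in 4 libraries, and the depth behind such values is only estimated.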

Other observations

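Many microRNAs are made from introns of protein-coding genes, and RefSeq places 411 of 1005 mouse hairpins within 391 tested genes on the same strand. Of those 391 host genes, 118 (30.2%) were higher and 191 (48.8%) lower under THZ1 in null cells, beside 24.6% and 51.1% of all genes. Median-of-ratios scaling gave 177 higher and 131 lower, beside 41.8% and 35.8% of all genes. In het cells 36 (9.21%) were higher and 42 (10.7%) lower, beside 12.2% and 10.3% of all genes. The higher hosts with the smallest adjusted p in null cells were Ankrd10 (0.74 ± 0.05, SE), which holds miR-7238, Hipk3 (0.70 ± 0.05), which holds miR-1902, and Mgat4b (0.54 ± 0.04), which holds miR-6919. The lower hosts were Klhdc7a (-2.05 ± 0.07) with miR-2139, Terf2 (-1.32 ± 0.06) with miR-7075, and Ppp1r10 (-1.44 ± 0.07) with miR-1894. Ppp1r10, which encodes a nuclear subunit of protein phosphatase 1, averaged 9.18 ± 0.990 FPKM in null THZ1, 26.5 ± 0.198 in null DMSO, 16.8 ± 0.629 in het THZ1 and 25.3 ± 0.247 in het DMSO (SD, n = 2 each), and it fell in het cells too, with a difference of -0.57 ± 0.07 (limma adjusted p = 0.000234).

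Between the lines under DMSO, 124 host genes (31.7%) were higher and 166 (42.5%) lower in null cells, close to the 29.0% and 41.0% of all genes. Dmpk, the myotonic dystrophy protein kinase gene, averaged 97.4 ± 4.43 FPKM in null THZ1, 69.9 ± 0.0778 in null DMSO, 8.27 ± 0.46 in het THZ1 and 7.91 ± 0.332 in het DMSO (SD, n = 2 each). Pdxk, the pyridoxal kinase gene, averaged 10.3 ± 0.403 FPKM in null THZ1, 8.06 in both null DMSO libraries, 45.3 ± 0.438 in het THZ1 and 38.2 ± 0.0849 in het DMSO. The complement gene C3 (2.42 ± 0.05) and the extracellular matrix gene Ecm1 (2.05 ± 0.05) were also higher in null cells. Scd2, a desaturase gene, was lower by -1.05 ± 0.04. Mcm7, the host of the miR-106b cluster and a subunit of the replicative helicase, was lower in null cells by -0.84 ± 0.04 (limma adjusted p = 1.27e-09). Host mRNA levels are not microRNA levels, which these libraries do not measure.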
